A study of Caenorhabditis elegans with 2 samples.

Results

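Distal intergenic regions were examined in a chromatin immunoprecipitation sequencing (ChIP-seq) map of the nuclear hormone receptor NHR-237 in whole L2 larvae of Caenorhabditis elegans. A region of the pooled list was a member when it lay on 1 of the 5 autosomes, its summit was more than 1000 bp from the 5′ end of every protein-coding gene, and the summit was outside all protein-coding genes. There were 1112 such regions among 6542 in all, or 17.0% (95% exact interval 16.1 to 17.9). The animals were of strain OP228, in which an integrated transgene, wgIs228, supplies nhr-237 fused to eGFP in an unc-119(ed3) background. Both libraries came from that 1 strain, with the sexes mixed, at a size range of 150 to 350 bp, and formed 1 group of 2 biological replicates. The transgene adds a tagged copy of the gene, and all cell types of the animal were pooled, so a region cannot be assigned to a cell type. An untagged strain was not analysed here.

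Nuclear hormone receptors are transcription factors with a zinc-finger domain that contacts short hexamer elements, and C. elegans has an unusually large family of them. Most regulatory elements of this compact genome lie close to gene starts, but enhancers also lie farther upstream, in introns and downstream of genes. Small noncoding RNA genes, such as those for small nucleolar RNAs (snoRNAs), which guide the modification of other RNAs, also sit between protein-coding genes and carry promoters of their own. The positional rule used protein-coding genes only, so such promoters could be members.

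The sequences at the summits of the 8 strongest members on chromosomes II to V are shown first, since the features described below can be read in them. Each is the plus strand of the ce11 genome, 50 bp to either side of the summit, named by the gene it lies in or next to. Capitals mark matches, on either strand, to GAGAGAG (called the GA repeat here) or to CCGCCC (of the type bound by KLF and SP factors). They also mark matches to CACGTG (the core of an E-box) or to CTGCGTCT (an octamer seen in the T04C4.3 and Y17G7B.17 sequences).
linc-128 region, chrV:1151452-1151552: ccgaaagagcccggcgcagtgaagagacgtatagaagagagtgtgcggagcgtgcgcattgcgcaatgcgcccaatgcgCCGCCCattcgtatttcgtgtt
sls-2.2 region, chrII:5543668-5543768: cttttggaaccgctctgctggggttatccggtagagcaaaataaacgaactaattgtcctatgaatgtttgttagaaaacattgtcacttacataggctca
T04C4.3 and fnip-2 region, chrIV:2219574-2219674: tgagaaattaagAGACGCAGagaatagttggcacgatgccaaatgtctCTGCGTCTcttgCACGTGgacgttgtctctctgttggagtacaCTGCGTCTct
ttr-17 region, chrIV:11071037-11071137: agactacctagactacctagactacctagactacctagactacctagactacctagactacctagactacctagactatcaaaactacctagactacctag
nhr-88 region, chrII:2974009-2974109: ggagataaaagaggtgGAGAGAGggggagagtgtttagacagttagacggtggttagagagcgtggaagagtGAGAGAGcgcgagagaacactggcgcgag
sup-26 region, chrIII:4282181-4282281: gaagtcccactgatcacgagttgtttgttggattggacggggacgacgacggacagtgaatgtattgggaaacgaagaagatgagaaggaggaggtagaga
F54F12.1 region, chrIII:13061223-13061323: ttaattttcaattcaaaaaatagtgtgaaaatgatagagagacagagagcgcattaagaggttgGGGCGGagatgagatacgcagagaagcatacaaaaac
Y17G7B.17 region, chrII:12102469-12102569: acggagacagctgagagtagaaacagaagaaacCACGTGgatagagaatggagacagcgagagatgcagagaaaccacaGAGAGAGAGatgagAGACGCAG
The linc-128 sequence is GC-rich, at 58.4% over the 101 bp shown. The T04C4.3 sequence holds the octamer on both strands and an E-box core. The nhr-88 sequence is purine-rich, with GA repeats at 2 places, and the Y17G7B.17 sequence holds a GA repeat, an E-box core and the octamer. The ttr-17 sequence is a tandem repeat. The sup-26 and sls-2.2 sequences hold none of the marked motifs.

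The strongest member lay at chrV:1151314-1151689, with its summit inside the long intergenic noncoding RNA gene linc-128, 596 bp from that gene's 5′ end. Its signal, the authors' value for a region on the scale of its own list, was 173 in the pooled list, 112 in replicate 1 and 55.1 in replicate 2. It ranked 24 of 30000 regions in each replicate list. The nearest protein-coding start was 4769 bp away, at cmd-1, the gene for calmodulin, and the interval between cutl-22 and cmd-1 measured 9769 bp. This region stood high in both libraries.

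The second, at chrII:5543530-5543905, had its summit 11 bp past the 3′ end of sls-2.2, a gene for the spliced leader SL2 RNA that is joined to the 5′ ends of messages from downstream genes of operons. Its signal was 111 in the pooled list, 89.4 in replicate 1 (rank 29) and 32.8 in replicate 2 (rank 65). The closest protein-coding start, 1146 bp away, was that of ins-13, which encodes an insulin-like peptide.

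The third, at chrI:16810-17185, lay between the convergent genes nlp-40, which encodes a neuropeptide-like protein, and rcor-1, a homolog of the CoREST corepressor. The interval between their 3′ ends was 646 bp, and the summit was 161 bp from the 3′ end of nlp-40 and 5503 bp from the nearest start. Its signal was 102 in the pooled list, 72.7 in replicate 1 and 27.0 in replicate 2. The fourth, between the divergent genes T04C4.3 and fnip-2 at chrIV:2219436-2219811, had nearly the same values, at 102, 72.1 and 29.9. It was 2768 bp from the closest start, so these regions of like signal sat in unlike gene arrangements.

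Among the next regions, the one past the 3′ end of F40E3.3 (chrI:2639605-2639980) ranked higher in replicate 2 than in replicate 1. Its signal was 91.5 pooled, 43.9 in replicate 1 (rank 140) and 49.5 in replicate 2 (rank 29). The ttr-17 repeat region (chrIV:11070973-11071150) had 83.1, 53.1 and 27.4. It was the only member whose interval was not 376 bp wide, 95.0% of its 201-bp window was soft-masked as repeat in the genome file, and its central 51 bp occur 14 times in the genome. The central 51 bp of each of the other 24 strongest members occur 1 time. How the authors placed reads among the copies is not given in the sources used here.

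Upstream of nhr-88, itself a nuclear hormone receptor gene, the region at chrII:2973871-2974246 had a signal of 75.03 pooled, 45.7 in replicate 1 and 21.2 in replicate 2. It was 2580 bp from the nhr-88 start. The sup-26 region, 2007 bp upstream of that gene for an RNA-binding protein, had 64.4, 54.999 and 17.9. Both were in GC-rich windows, at 56.7% and 54.7%.

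Some of the 25 strongest members stood high in 1 library only. The region over snoRNA F25H2.15, 1004 bp upstream of the proteasome subunit gene pas-5, had 53.7 in replicate 1 (rank 83) and 8.22 in replicate 2 (rank 9905). The tcc-1 region had 39.6 (rank 169) and 8.03 (rank 10578), and the region at snoRNA K07C10.2 had 43.2 (rank 146) and 5.69 (rank 24052). The opposite order was seen at unc-43, the gene for calcium/calmodulin-dependent kinase II, where the summit was 3 bp past the annotated 3′ end. Its signal was 46.0 pooled, 19.8 in replicate 1 (rank 1252) and 21.6 in replicate 2 (rank 184), in a window of only 24.9% GC.

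The rest of the 25 fell between pooled signals of 46.6 and 62.3. They lay next to F54F12.1, Y17G7B.17, mtm-3 (a myotubularin phosphatase), Y105C5A.1, F58D5.5, mir-52, F58D12.3, W09D10.4, snoRNA C16D9.10, ahcy-1 (S-adenosylhomocysteine hydrolase), F53E10.5, T23E1.1 and otub-2. All 25 were in the authors' list of peaks thresholded on the irreproducible discovery rate (IDR), a measure of how far ranks repeat between replicates. That list held exactly the 350 pooled regions of highest signal. The 25 were picked by pooled signal, so their place in it follows from their rank and does not show that they repeat.

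**Figure D1:**
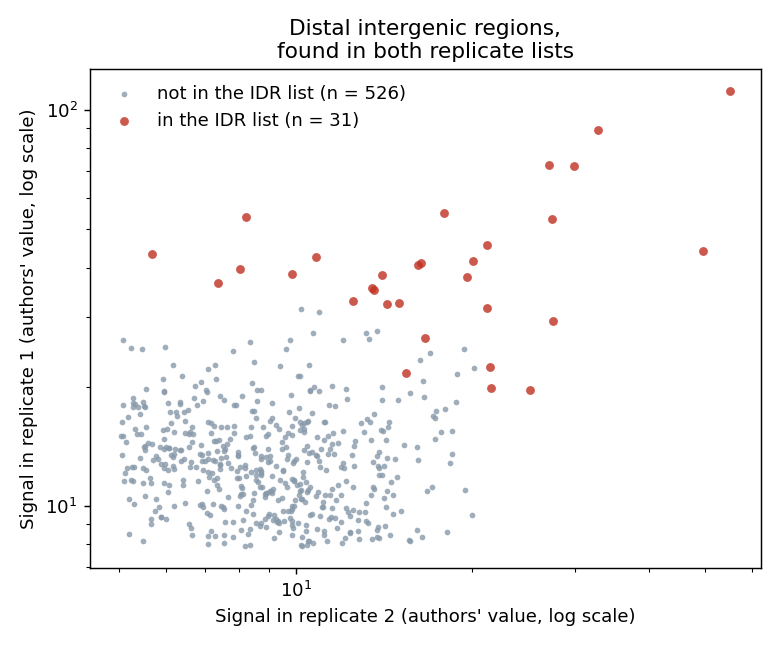
Signal of each distal intergenic region in replicate 2 (horizontal, log scale) and replicate 1 (vertical, log scale), for the 557 regions matched in both lists; red points are the 31 in the IDR list and grey points the 526 that are not. Most red points lie above or to the right of the grey cloud, while the F53E10.5 region, at 21.7 in replicate 1 and 15.4 in replicate 2, lies within it. No trend between the libraries is visible in the grey points, which were taken from a list built on both libraries together.

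Of the 1112 regions, 33 were in the IDR list, or 2.97% (95% exact interval 2.05 to 4.14), beside 5.35% of all pooled regions. The share was 8.72% for autosomal regions within 1000 bp of a start, 1.96% for those inside genes away from starts, and 9.52% for intergenic regions away from starts on the X chromosome. The IDR peaks were exactly the 350 pooled regions of highest signal, from 41.9 up, so the share restates how many members had a high signal. No test was run on any share, since regions of 1 group are not replicates, and intervals cover counting error only.

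Most distal intergenic regions were weak. Their median signal was 21.7, with quartiles of 20.1 and 24.9, against 21.9 for all regions and 22.6 for autosomal regions near a start. Only 36 had a signal of 40 or more, and 589 lay under 22.

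The libraries were compared by asking whether each had a summit within 150 bp of the member among its 6542 highest regions, as many as the pooled list holds. In replicate 1 this held for 550 members (49.5%) and in replicate 2 for 381 (34.3%). In both it held for 121, or 10.9% (95% exact interval 9.11 to 12.9), beside 13.9% of all pooled regions. A further 302 members had no such summit in either library. Of 94254 adjoining windows of 201 bp that tile the space open to the rule, 0.172% had a summit from both libraries in reach. The members come from the pool of these same libraries, so their distance from the windows does not measure how well regions repeat.

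Recurrence lay with the strong regions. It was found for 27 of the 33 IDR members (81.8%) and for 94 of the other 1079 (8.71%), and the pooled signal and IDR rank are built from the same libraries. By signal, the share was 83.3% at 40 or more, 50% (35 of 70) from 30 to 40, 23.1% from 25 to 30, 4.84% from 22 to 25 and 1.23% from 20 to 22. The other pooled regions had 94.6%, 53.2%, 19.0%, 5.75% and 1.36% in the same ranges. Over the 557 members listed in both libraries the Spearman correlation of their signals was 0.0082, and over the 31 such IDR members it was 0.18. Over all 3399 pooled regions listed in both it was 0.16. These are descriptions over regions that share 2 libraries. The regions were taken from a list built on the signal of both libraries together, which bears on these correlations. The correlations therefore do not measure how well the libraries agree.

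Each library taken alone placed a like share of its regions in distal intergenic space. Among the 350 highest regions 34 met the rule in each, or 9.71%. Among the 1000 highest the share was 12.8% in replicate 1 and 14.9% in replicate 2, among the 6542 highest it was 16.4% and 16.8%, and among all 30000 it was 17.2% and 17.1%. The space open to the rule is 18.9% of the nuclear genome. The share of regions within 1000 bp of an autosomal start went the other way, from 57.7% and 53.1% among the 350 highest to 31.8% and 31.5% among all.

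**Figure D2:**
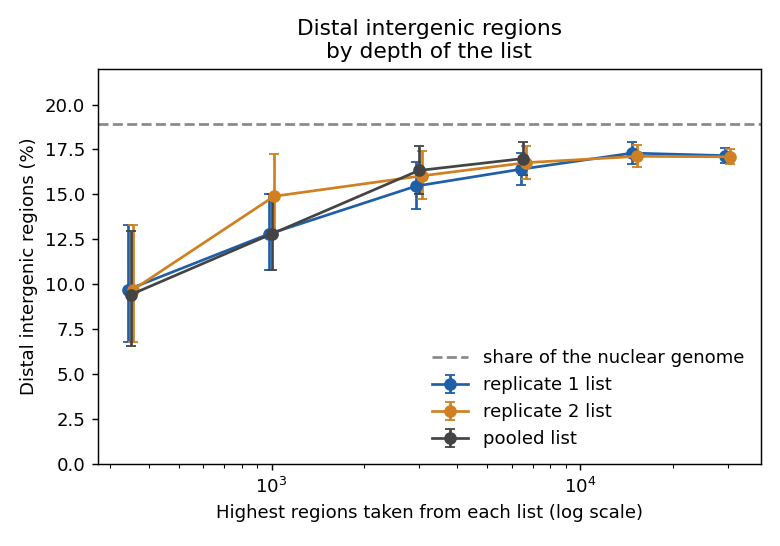
Percent of regions that are distal intergenic (vertical) among the highest regions of each list by signal (horizontal, log scale), for replicate 1, replicate 2 and the pooled list; bars are 95% exact intervals and the dashed line is the 18.9% of the nuclear genome that meets the rule. All 3 lists start near 10% at the 350 highest regions and end near 17%.

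Base composition differed between strong and weak members. The median GC of the 201-bp window was 47.8% in the 33 IDR members (quartiles 41.3 and 52.2) and 33.8% in the 1079 others, and it was 33.8% in the windows that tile the same space. IDR peaks elsewhere had 43.8%. Only 2 of the 33 IDR members, at unc-43 and at C51E3.6, were at or under the median of the tiling windows. The IDR members also had little masked repeat, with a median of 17.9% of bases against 37.3% in the tiling windows. Their CpG content, as observed over expected, had a median of 0.943, while IDR peaks near autosomal starts had 1.42 and the tiling windows 0.924. The 34 intergenic IDR peaks of the X chromosome, also away from starts, were close to the members, at 0.897 for CpG and 16.4% masked, with a median GC of 42.0%.

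The GA repeat was, of the 12 motifs sought, the one present in the most strong members. The motifs were chosen with earlier results of these data known, so its share is not independent of that choice. GAGAGAG, sought on both strands within 100 bp of the summit, was present in 14 of the 33 IDR members, or 42.4% (95% exact interval 25.5 to 60.8). It was present in 16.7% of the 317 other IDR peaks (12.8 to 21.3), in 6.95% of the members not in the IDR list and in 3.29% of the tiling windows. The GA repeat occurred at nlp-40, T04C4.3, nhr-88, Y17G7B.17, mtm-3, Y105C5A.1, F58D5.5, W09D10.4, T23E1.1, otub-2, din-1, hif-1, cpt-1 and aakg-1. Among these, hif-1 encodes the hypoxia-inducible transcription factor, din-1 a partner of the nuclear receptor DAF-12, and aakg-1 a subunit of AMP-activated kinase.

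A second motif, CTGCGTCT, was added after the strongest sequences had been read, so its share among strong members is not independent of that choice. It was in 11 of the 33 IDR members (33.3%), in 16.4% of the other IDR peaks, in 5.10% of the weaker members and in 1.30% of the tiling windows. It shared the window with GAGAGAG in 8 of the IDR members, and 17 held either motif, or 51.5% (33.5 to 69.2). Among other IDR peaks 28.1% held either (23.2 to 33.4). A minus-strand match to the octamer can share its first letters with a GA repeat, and both occur in the purine-rich stretches shown above.

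The hexamers of the type bound by nuclear receptors were found in few of the strong members. The receptor half-site AGGTCA was in 12.1% of IDR members (4 of 33) and 5.32% of tiling windows, with a wide interval of 3.40 to 28.2% for the former. The hexamer AGTTCA was in 3.03% and 13.7%. The hexamer AGTGCA, of the type bound by the receptor DAF-12, was in 3.03% and 6.72%. The core bound by GATA factors, TGATAA, was in 9.09% of IDR members and 17.3% of the tiling windows, and runs of 8 T were in 12.1% and 24.9%. The KLF and SP type CCGCCC was in 15.2% and 3.37%, and the E-box core was in 9.09% and 2.82%. Among the 317 other IDR peaks, CCGCCC was in 12.9%, the E-box core in 4.73%, TGATAA in 6.62% and runs of 8 T in 15.5%. AGGTCA was in 5.36% of those peaks, AGTTCA in 6.31% and AGTGCA in 8.83%. In each case 1 of the 33 (3.03%) held the AP-1 type TGANTCA, the telomere repeat unit TTAGGC and the tRNA promoter B box GTTCGANNC. In the same order these were in 5.52%, 5.38% and 1.58% of tiling windows, and in 5.99%, 6.94% and 2.21% of other IDR peaks.

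**Figure D3:**
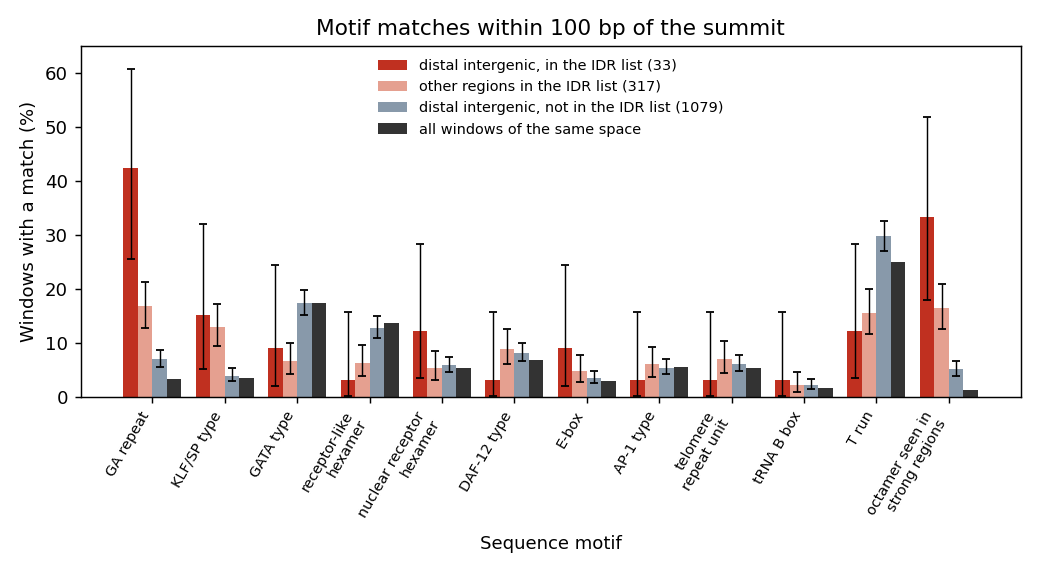
Percent of 201-bp windows with a match to each of 12 motifs (vertical), for the 33 distal intergenic regions in the IDR list, the 317 other IDR peaks, the 1079 remaining distal intergenic regions and all windows that tile the same space; bars on the first 3 are 95% exact intervals. The GA repeat, at 42.4%, and the octamer CTGCGTCT, at 33.3%, are the highest columns of the first set.

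The same features were counted in each library on its own. Among the 34 members of the rule within the 350 highest regions of replicate 1, GAGAGAG was in 14 (41.2%), CTGCGTCT in 12 (35.3%) and the median GC was 47.0%. In replicate 2 the 34 had 9 (26.5%), 9 (26.5%) and 39.8%. The other regions within the 350 highest had GAGAGAG in 17.7% in replicate 1 and 12.03% in replicate 2. Their median GC was 43.3% in replicate 1 and 40.8% in replicate 2, so in replicate 2 the distal intergenic regions were not the richer in GC. In both libraries the GA repeat share was higher in distal intergenic regions than in the others at this depth. Among the 1000 highest the shares were 24.2% against 12.2% in replicate 1 and 12.1% against 10.5% in replicate 2.

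The motif share also followed signal within the pooled list. GAGAGAG was in 41.7% of members with a signal of 40 or more, 21.4% from 30 to 40, 10.1% from 25 to 30, 7.26% from 22 to 25, 5.86% from 20 to 22 and 1.89% below 20. In other regions it went from 16.9% to 3.35%. Median GC in the same order was 48.0, 40.8, 33.8, 32.8, 33.6 and 32.8%. GC was thus nearly level below a signal of 30, where the GA repeat share still changed. At 30 and above, GC, the motif and presence in both libraries moved together, and their separate parts were not tested.

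**Figure D4:**
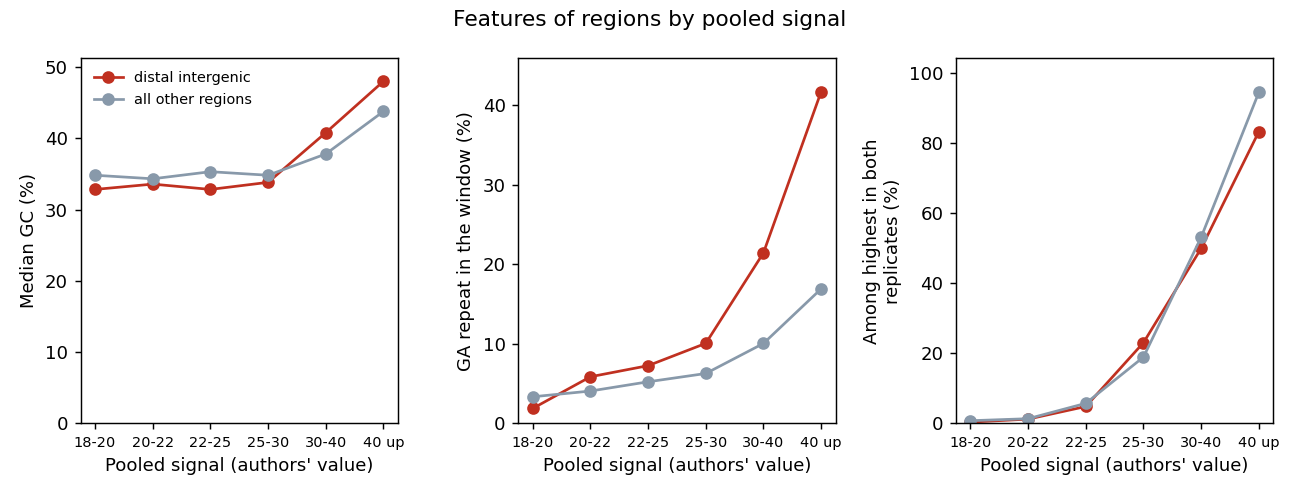
Median GC (left), percent of windows with GAGAGAG (middle) and percent with a summit among the 6542 highest regions of both replicates (right), by range of pooled signal, for distal intergenic regions (red) and all other pooled regions (grey). The GA repeat share and the share in both replicates rise with signal, while median GC is nearly level below 30 and higher in the top 2 ranges. At 40 or more the red GA repeat share is 41.7% and the grey 16.9%.

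Some of the strong members lay at small noncoding RNA genes. A snoRNA, tRNA, snRNA or miRNA gene lay within 250 bp of the summit in 27 members, or 2.43% (95% exact interval 1.61 to 3.51), beside 3.30% of other pooled regions and 0.812% of the tiling windows. Of these 27, 7 were in the IDR list (25.9%) and 12 recurred in both libraries (44.4%), and their median signal was 32.0. The 179 other pooled regions near such genes had 35 in the IDR list (19.6%), 67 in both libraries (37.4%) and a median signal of 25.3. None of the 7 held GAGAGAG or CTGCGTCT. Either motif or such a gene was found at 24 of the 33 IDR members. This joint count was not made for other IDR peaks or tiling windows, and CTGCGTCT was picked from strong members. It is therefore not a measure of how far these features set the members apart. The 9 with neither included the linc-128, F40E3.3, ttr-17, sup-26 and unc-43 regions.

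The snoRNA genes formed the largest class, with 15 members (1.35%, against 1.01% of other pooled regions and 0.199% of tiling windows). The summit was upstream of the snoRNA in 9 and inside it in 6. At C16D9.10, on chromosome V, the summit was 7 bp inside the gene, with a signal of 50.1 pooled, 31.5 in replicate 1 and 21.2 in replicate 2. At T06C12.16, between the convergent genes str-56, a chemoreceptor, and nhr-102, it was 63 bp upstream, with 43.5, 32.6 and 15.0. At ZK20.9, between din-1 and ghi-1, it was 19 bp upstream, with 37.1, 20.004 and 14.03. These 3 were each matched in both libraries, and at F25H2.15 and K07C10.2 replicate 2 was low, as given above.

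Few members lay at other small RNA genes. The region at chrI:13297635-13298010 lay between the SL2 gene sls-2.9, 54 bp from its 5′ end, and a tRNA gene, 78 bp from its 5′ end, with a signal of 45.1 pooled, 26.6 in replicate 1 and 16.6 in replicate 2. There were 6 members near tRNA genes (0.540%, against 1.53% of other pooled regions and 0.225% of tiling windows) and 3 near snRNA genes (0.270%, against 0.442% and 0.107%). Of 4 near miRNA genes (0.360%, against 0.313% and 0.202%), the strongest was 26 bp past the 3′ end of mir-52, with 51.8, 38.3 and 14.0. The region upstream of mir-51, of the same family, had 19.1, 15.2 and 9.70. No member was near an rRNA gene.

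Among the other annotated classes, piRNA genes were as frequent at members as in the space around them. PiRNA genes, which encode germline small RNAs that act with PIWI proteins, were within 250 bp of 98 members (8.81%) and of 8.65% of tiling windows. Of these, 94 were on chromosome IV, where piRNA genes cluster. In the IDR list were 0 of the 98, beside 2.97% of all members, so few would be looked for in a set of this size. Pseudogenes were near 79 members (7.10%), below the 15.2% of tiling windows, and lincRNA genes were near 18 (1.62%, against 1.04%). Of the 18, 2 were in the IDR list (11.1%, a small count), at linc-128 and at K07C10.8, which overlaps the snoRNA K07C10.2. The summit was inside the lincRNA in 13 of the 18. The linc-57 region, between the Hox genes lin-39 and ceh-13, had 25.2 pooled and 20.3 in replicate 1, with no match in replicate 2. Genes annotated as ncRNA were near 82 members (7.37%, 5.91 to 9.07), against 4.74% of tiling windows and 7.33% of other pooled regions. Of these, 5 were in the IDR list (6.10%), some of them also near a small RNA gene, as at sls-2.2.

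**Figure D5:**
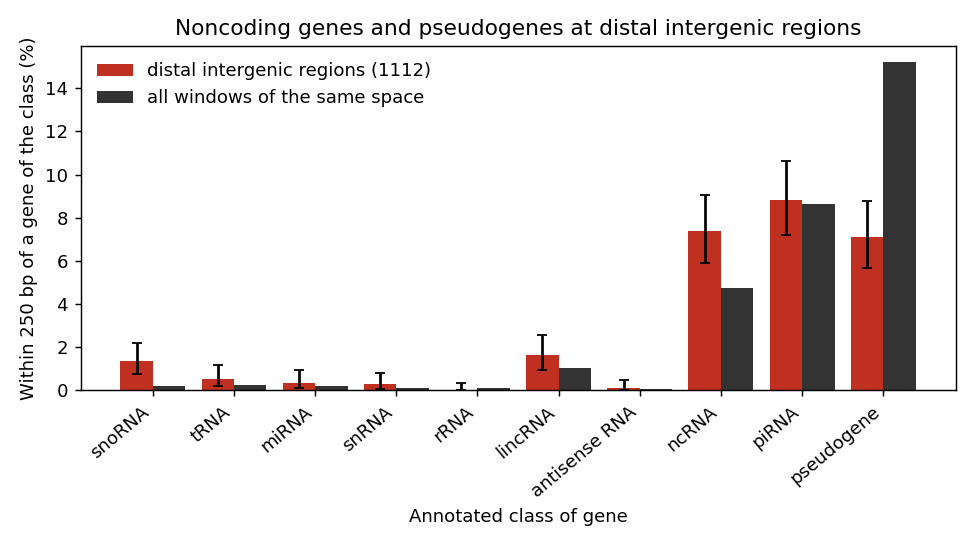
Percent of the 1112 distal intergenic regions (red, with 95% exact intervals) and of all windows that tile the same space (black) with a gene of each annotated class within 250 bp. The snoRNA column is 1.35% against 0.199%, the piRNA columns are 8.81% and 8.65%, and the pseudogene column is 7.10% against 15.2%.

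Members lay a little closer to starts, and more often between divergent genes, than the open space does. The closest start was a median of 2522 bp away (quartiles 1627 and 4309, highest 28041), against 2776 bp for the tiling windows. The flanking genes were in tandem for 52.6% of members, divergent for 34.1% (95% exact interval 31.3 to 37.0) and convergent for 13.2% (11.3 to 15.4), against 53.7%, 29.5% and 16.7% of tiling windows. The IDR share had no steady course with distance, being 3.43% from 1000 to 1500 bp, 1.75% to 2000 bp, 4.30% to 3000 bp, 1.66% to 5000 bp and 3.98% to 10000 bp, with 0 of 35 regions beyond that, which allows up to 10.003%.

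The closest gene boundary was a 3′ end for 46.9% of members (43.9 to 49.8), against 50.5% of tiling windows. Close to 3′ ends, the members exceeded the space: 113, or 10.2% (8.45 to 12.1), had a summit within 200 bp past a 3′ end, against 5.94% of tiling windows. Their median GC was 31.8%. Of all 1112 members, 121 recurred in both libraries and 33 were in the IDR list. Of the 113, 18 recurred and 5 were in the IDR list. The 5 of them in the IDR list were the nlp-40, C16D9.10 and unc-43 regions described above, the str-56 region, and the C51E3.6 region, 63 bp from a 3′ end, with 44.3 pooled and no match in replicate 2.

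Members lay on all 5 autosomes, with 173 on I, 198 on II, 195 on III, 300 on IV and 246 on V, and IDR members numbered 7, 6, 6, 6 and 8. Chromosome III held 17.5% of the members (15.3 to 19.9) and 14.5% of the open bases, and chromosome V held 22.1% (19.7 to 24.7) and 26.6%. Per Mb of open space this was 71.0 on III and 48.8 on V. With each chromosome divided into 3 equal lengths, III had fewer members per Mb in the middle (52.9) than in the outer lengths (80.3). The order was the opposite on I (74.1 and 57.7), II (63.9 and 53.3) and IV (71.2 and 57.5), and V had 46.9 and 49.7.

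By closest start, the 1112 regions were assigned to 942 genes, of which 139 had more than 1 region, and ilcr-1 had the most, with 5 over about 10 kb, none in the IDR list. Chemoreceptor genes were closest for 49 members (4.41%), below the 7.15% of tiling windows, with 1 in the IDR list, at str-56. Nuclear hormone receptor genes were closest for 30 (2.70%, 1.83 to 3.83, against 1.96%), with 1 in the IDR list, at nhr-88. Next among these were nhr-62, with 30.6 pooled, 21.3 in replicate 1 and 10.2 in replicate 2, and nhr-242, with 29.7, 18.3 and 5.50. Neuropeptide and insulin genes were closest for 19 (1.71%, against 1.26%), 2 of them in the IDR list, at ins-13 and nlp-40. The IDR list held 2.97% of all members, and these counts are small.

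Homeobox genes were closest for 10 members (0.899%, against 0.638% of tiling windows). The strongest, at ceh-48, had 39.8 pooled, 31.5 in replicate 1 and 10.2 in replicate 2. The region at egl-5, a Hox gene, had 27.5, 11.6 and 6.42. Collagen and cuticle genes were closest for 11 (0.989%, against 0.835% of tiling windows) and F-box and MATH genes for 16 (1.44%, against 2.06%). Ribosomal protein genes were closest for 7 (0.629%, against 0.230%) and C-type lectin genes for 5 (0.450%, against 0.904%). None of these regions was in the IDR list, which held 2.97% of all members. Histone, UDP-glucuronosyltransferase and cytochrome P450 genes, the last 2 families of detoxification enzymes, were closest for 0 members, which allows a share of up to 0.331%. They were closest for 0.0562%, 0.149% and 0.254% of tiling windows. Closeness to a start does not assign a region to a gene.

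Regions on either side of the 1000-bp limit were also listed. The 3 regions just inside it, at Y50E8A.11 (1002 bp), pas-5 (1004 bp) and gid-8 (1005 bp), had pooled signals of 20.3, 60.7 and 27.1. The 3 just outside, at mai-2 (1000 bp), athp-3 (999 bp) and pcp-3 (988 bp), had 20.2, 22.2 and 25.8.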

How the data were processed

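ChIP-seq of eGFP-tagged NHR-237 was represented by ce11 region lists of 2 replicates, their pool and an IDR list. The signal of a region (column 7) was deposited by the authors, on the scale of its own list. Which aligner and peak caller were used, what the control was and where IDR was cut is not given in the sources used here, and depth is unknown. The lists named for replicates hold 30000 regions each, which the file labels call peaks with background.

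Summits were placed against Ensembl release 115 gene models of WBcel235 (19973 nuclear protein-coding genes) and the RefSeq sequence of that assembly, using pandas 2.3.3, NumPy 2.4.6 and SciPy 1.17.1 under Python 3.11.15, with matplotlib 3.10.9 for plots. Replicate regions were matched within 150 bp. All non-overlapping 201-bp windows with centres open to the rule, 94254 in all, gave the background. Intervals are Clopper-Pearson. With 1 group, no test was run. The position rule, the summit matching and the motif search were checked on simulated data.

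Members, gene lists and motifs were chosen with earlier results of these data known. Regions were named by rule: the 25 highest members, the strongest per noncoding class and those at the 1000-bp limit. Others (such as linc-57, egl-5, ZK20.9 and the weaker IDR members) were chosen after their values were seen. Alternatives covered distance, merging, matching, windows, gene models, the IDR list and each library alone.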

Additional observations from a re-analysis of the deposited data

How the results depend on the processing

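Of 72 recomputed values, 57 stayed within the interval or range of the reported one and 15 moved. The share of pooled regions meeting the rule was 21.61% with a 500-bp limit, 10.82% with 2000 bp and 9.429% of the IDR list. The share closest to a 3′ end was 51.69% with 2000 bp and 54.55% in the IDR list. Recurrence in both replicates was 7.284% with matching within 75 bp, 14.39% within 300 bp, 14.75% by overlap of intervals, 50.09% when all 30000 regions of each list were allowed, and 81.82% in the IDR list. Within the IDR list, small RNA genes were near 21.21% and GAGAGAG was in 42.42%. With 50 bp to either side, GAGAGAG was in 5.036% of all members. The median signal was 11.03 without replicate 1 and 15.87 without replicate 2, each on the scale of the remaining list. Each move came with a change of list, limit, matching or window, and why a value moved was not tested.

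RefSeq gene models, chosen after seeing the data, gave 1145 members and moved none of the 8 values recomputed with them. GAGAGAG in the IDR members ran from 33.33% to 53.85% over its 8 alternatives. No paired analysis was possible because there is 1 group. Depth is unknown, only 33 members were strong, and no control list was analysed here, so a weak member cannot be told apart from background.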

Other observations

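Some members had close neighbours. There were 25 pairs of adjacent members with summits within 500 bp and 120 within 2000 bp. At srt-6, a chemoreceptor gene, a region with a pooled signal of 36.1 at 2369 bp from the start had no summit within 150 bp in either replicate list. Another at 2170 bp, with 29.2, had 16.3 in replicate 1 and 14.4 in replicate 2. Their summits, at chrV:7406445 and chrV:7406644, are so close that the 376-bp intervals overlap. Upstream of F54F12.1 a second IDR member, 7174 bp from the start, had 42.9 pooled and no match in replicate 2. At mir-80, a region 204 bp upstream had 19.1 pooled and 21.2 in replicate 1, with no match in replicate 2.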
